A study of Mus musculus with 3 samples.

Results

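The genes examined were Pou5f1, Fgf4, Utf1, Fbxo15 and Sall4, 5 known targets of joint binding by the transcription factors Sox2 and Oct4 in mouse embryonic stem cells. The members are the ATAC-seq peaks with a midpoint inside the gene or within 50 kb of it. This rule uses position alone and found 62 of 88898 peaks in the Halo-Sox2 list, 76 of 83995 in the Halo-Sox2a list and 60 of 72638 in the control list. Overlapping peaks of the 3 lists were merged into union regions, of which 88 lay at the 5 genes and 130664 in the genome. In GRCm38 coordinates the genes are at chr17:35506032-35510777 (Pou5f1), chr7:144861386-144865245 (Fgf4), chr7:139943856-139945112 (Utf1), chr18:84934552-84981476 (Fbxo15) and chr2:168748332-168767201 (Sall4).

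ATAC-seq cuts open DNA with the transposase Tn5, so a peak marks a stretch of accessible chromatin. The mouse embryonic stem cells came from the CGR8 line and were grown with LIF, CHIR99021 and PD184352. The line SES4.1 expressed Halo-tagged Sox2 after 20 h of 300 ng/mL doxycycline, and the line SES5.1 expressed Halo-Sox2a (a variant the labels do not describe) after 20 h of 70 ng/mL. The proteins were stained with 50 nM of a Halo dye and both lines were sorted with a common intensity gate. The line SES11 is labelled as the control, with no transgene named, and the labels do not say whether it received doxycycline, dye or sorting. Each group had 1 library, so the spread between replicates is unknown and no test was run. Each group was a single named line.

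Sox2 binds DNA through an HMG box that bends the helix, and Oct4, the product of Pou5f1, binds through a bipartite POU domain. At many enhancers of pluripotent cells their sites lie side by side, and the proteins bind there together. The targets have different roles. Pou5f1 is part of the circuit itself, Fgf4 is a secreted growth factor that activates ERK signalling, Utf1 is a chromatin protein of undifferentiated cells, Fbxo15 is the F-box subunit of a ubiquitin ligase, and Sall4 is a zinc-finger transcription factor.

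The promoters of Pou5f1, Fgf4 and Utf1 are shown because peaks covered those of Fgf4 and Utf1 in every list and that of Pou5f1 in none. They are the windows found among the 5 genes. Each is the RefSeq window from 250 bases before to 50 bases after the start site on the plus strand of GRCm38.p6, at chr17:35505782-35506081 for Pou5f1, chr7:144861136-144861435 for Fgf4 and chr7:139943606-139943905 for Utf1. Capitals mark the motifs found by searching both strands.
Pou5f1: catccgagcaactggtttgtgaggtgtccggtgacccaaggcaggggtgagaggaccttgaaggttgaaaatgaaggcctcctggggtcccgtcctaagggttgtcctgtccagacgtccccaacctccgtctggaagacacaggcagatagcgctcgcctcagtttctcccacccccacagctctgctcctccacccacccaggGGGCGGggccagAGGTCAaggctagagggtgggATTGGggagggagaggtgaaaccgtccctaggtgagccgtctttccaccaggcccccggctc
Fgf4: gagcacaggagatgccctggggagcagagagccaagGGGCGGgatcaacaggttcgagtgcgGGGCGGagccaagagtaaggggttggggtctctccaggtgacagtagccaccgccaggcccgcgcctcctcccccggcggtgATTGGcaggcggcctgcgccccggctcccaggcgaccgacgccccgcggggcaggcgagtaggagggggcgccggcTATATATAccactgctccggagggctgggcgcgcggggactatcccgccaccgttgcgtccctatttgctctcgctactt
Utf1: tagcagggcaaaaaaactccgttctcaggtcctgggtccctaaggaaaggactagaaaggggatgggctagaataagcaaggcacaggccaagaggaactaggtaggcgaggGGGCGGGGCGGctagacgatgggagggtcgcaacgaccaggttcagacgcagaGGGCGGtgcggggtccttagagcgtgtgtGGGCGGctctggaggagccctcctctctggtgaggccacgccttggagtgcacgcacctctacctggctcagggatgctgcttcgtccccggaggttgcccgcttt

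No peak of any list covered a base of the Pou5f1 window. The Utf1 window was covered over all 300 of its bases in every list, and the Fgf4 window over 284 bases by Halo-Sox2 peaks, 292 by Halo-Sox2a peaks and 300 by control peaks. The motifs searched were the SOX core CNTTGT, present in 41.2% of 32851 windows of the same length, and a composite site, made of that core, any 1 base and ATGCNAA, present in 0.0213%. The octamer ATGCAAAT was present in 1.74%. None of these was found in the 3 windows. The GC box GGGCGG was present in 35.7% of all windows, the CCAAT box in 37.4%, the nuclear receptor half-site AGGTCA in 16.3%, the TATAAA box in 13.6% and the repeat TATATA in 5.67%. The Pou5f1 window held 1 GC box, 1 AGGTCA and 1 CCAAT on the minus strand, with first bases at -45, -33 and -12 from the start site. The Fgf4 window held 2 GC boxes (-214 and -188), 1 CCAAT on the minus strand (-106) and 2 overlapping matches to TATATA (-30 and -28). The Utf1 window held 4 GC boxes at -138, -133, -85 and -56, the first pair of which share a base. No window of the 3 held TATAAA. These matches describe the letters of the windows and not sites in use.

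The deposited lists give each peak a whole-number score without a stated scale. These authors' values were used for ranks within a list alone, and the percentile of a peak is the percent of its list with a lower score. The lists differed in length, their median scores were 149 (Halo-Sox2), 101 (Halo-Sox2a) and 85 (control), and the depth of the libraries is unknown. Accessible sites with scores below a list's threshold are not in it. A peak within 1 kb of a gene end was found at 5 of 8 pluripotency markers in the Halo-Sox2 list and at 7 of 8 in each of the others. The shares over 21900 protein-coding genes were 62.4% (Halo-Sox2), 63.2% (Halo-Sox2a) and 62.8% (control). Such a peak was also found at 3 of 4 primitive endoderm, 4 of 4 mesendoderm and 4 of 4 neural genes in every list. Of 4 trophoblast genes, 3 had one in each Halo-Sox list and 2 in the control list, with Eomes on this and the mesendoderm list, so presence at gene ends did not tell the labelled cell type from others.

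**Figure D1:**
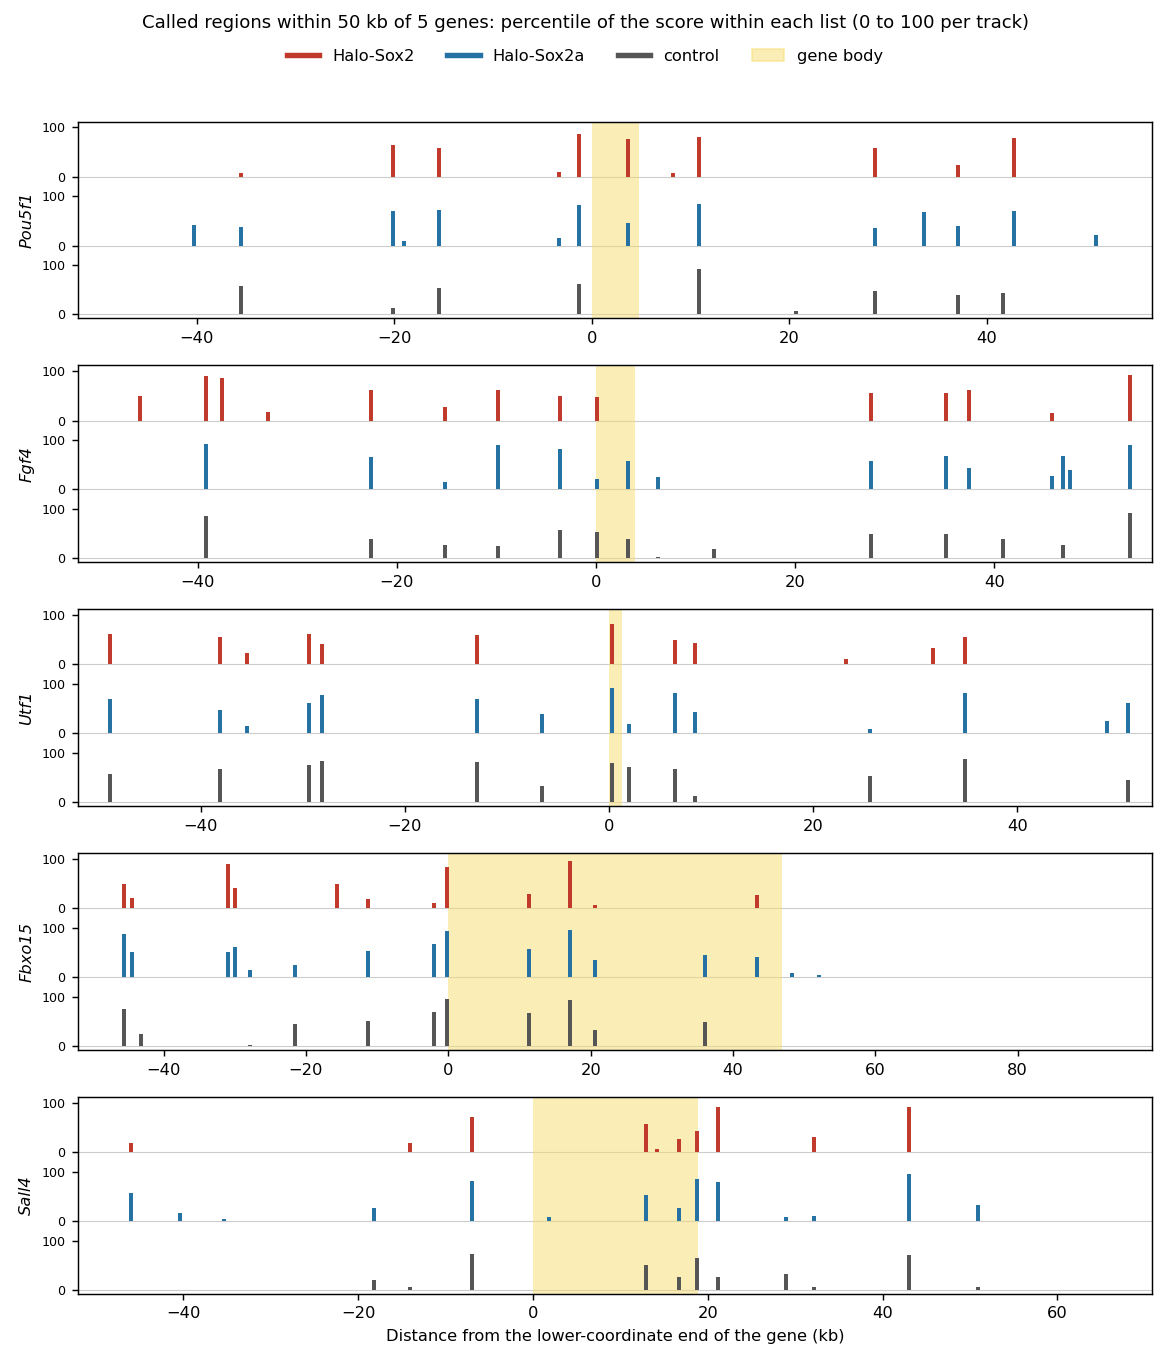
Union regions within 50 kb of the 5 genes. Each panel is a gene, the x axis is the distance in kb from the lower-coordinate end of the gene, the yellow band is the gene body, and the height of each line is the percentile (0 to 100) of the region's highest score in the Halo-Sox2, Halo-Sox2a or control list, with no line where no peak was called. The Pou5f1 body holds a line in the upper 2 tracks only, and the Fgf4 body, 3164 bp from its start, holds one in the lower 2 only.

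At Pou5f1, the region just before the gene was held by all 3 lists and stood higher in both Halo-Sox lists than in the control list, and a region inside the gene was called in both Halo-Sox lists and not in the control. The upstream region (chr17:35503671-35505720) scored 470 with Halo-Sox2 (rank 12406 of 88898, where 1 is the highest), 277 with Halo-Sox2a (rank 14538 of 83995) and 109 in the control (rank 28337 of 72638). These ranks correspond to percentiles 86.0, 82.6 and 60.8. It is the stretch in which the distal and proximal enhancers of Pou5f1 are known to lie, the distal one being used in naive stem cells.

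The shape of the call over this stretch differed. In the Halo-Sox2 list it was a pair of peaks, 859 bp wide (chr17:35503671-35504529, score 470) and 627 bp wide (chr17:35504716-35505342, score 173, percentile 55.4), with midpoints at -1932 and -1003 bp from the start site. The Halo-Sox2a list held a single peak of 1804 bp and the control list a single peak of 1580 bp. The higher Halo-Sox2 peak was thus the one farther from the gene. The peaks nearest to the start site ended 690 bp before it for Halo-Sox2, 312 bp for Halo-Sox2a and 549 bp for the control. With no peak midpoint within 1 kb of either end in any list, Pou5f1 was the exception among the 5 genes, since the other 4 had such a peak in every list, as did 62.4% (Halo-Sox2), 63.2% (Halo-Sox2a) and 62.8% (control) of 21900 protein-coding genes. This depended on the distance chosen. The second Halo-Sox2 peak, at -1003 bp, lay just outside it, and with 2.5 kb all 5 genes had such a peak in every list.

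The region inside Pou5f1 (chr17:35509365-35509997) lay 3649 bp after the start site. It scored 328 in the Halo-Sox2 list (rank 21489, percentile 75.7) and 92 in the Halo-Sox2a list (rank 44051, percentile 45.5), with no control peak. A missing control peak was common at such ranks. Of all Halo-Sox2 regions between percentiles 60 and 80, 42.1% had no control peak, and of all Halo-Sox2a regions between percentiles 40 and 60, 31.9% had none. Each share counts the regions of a single list. Among regions called in both Halo-Sox lists, at any rank, 11695 had no control peak and 41984 had one. The gene table gives no exons, so whether the region is exonic or intronic is not known here.

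Both other regions within 5 kb of Pou5f1 were weak. One at chr17:35502497-35503003, before the gene, scored 44 in the Halo-Sox2 list (rank 79885) and 39 in the Halo-Sox2a list (rank 71061), without a control peak. The other, at chr17:35514044-35514372 beyond the gene, scored 38 in the Halo-Sox2 list alone (rank 82987, percentile 6.44). Of the 4 regions within 5 kb, the Halo-Sox2 list thus held 4, the Halo-Sox2a list 3 and the control list 1. Both weak regions dropped out with only peaks above percentile 25 of each list, and the one beyond the gene was nearest to Tcf19. Over all regions, 37.9% of those held by Halo-Sox2 or the control had no control peak. The share was 28.0% of those held by Halo-Sox2a or the control.

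The remaining 13 regions at Pou5f1 lay among its neighbours in the major histocompatibility complex. All 3 lists held 6 of them, Halo-Sox2a alone held 4, the control alone 2, and both Halo-Sox lists 1. The last (chr17:35548509-35549114, nearest to Cdsn) scored 355 (rank 19362) in the Halo-Sox2 list and 182 (rank 24719) in the Halo-Sox2a list. The highest region of Halo-Sox2a alone (chr17:35539413-35539876) ranked 26516 with a score of 170, and the higher of the control-only pair (chr17:35547466-35547776) ranked 40537 with a score of 72. Only 4 of the 17 regions had Pou5f1 as the nearest protein-coding gene, so most of this window describes other genes.

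At Fgf4, both regions near the gene that were not shared by all lists were missing from the Halo-Sox2 list and present in the other lists. At Pou5f1 the Halo-Sox2 list held every near region, although both weak ones left it with lists of equal length. The Halo-Sox2a list kept the weak region before Pou5f1 at that setting. One of the Fgf4 regions missing from the Halo-Sox2 list (chr7:144864287-144864812) lay inside the gene towards its far end, 3164 bp after the start site. The Fgf4 enhancer that Sox2 and Oct4 bind together is known to lie in the last part of the gene, and the lists alone cannot say that the region is that enhancer. The Halo-Sox2a list held a peak of 526 bp there with a score of 129 (rank 34570, percentile 58.6), and the control list a peak of 350 bp with a score of 67 (rank 41588, percentile 39.8). No Halo-Sox2 peak was called. Among all regions of the control list between percentiles 20 and 40, 55.2% had no Halo-Sox2 peak. The region stood at the upper edge of that range, and between control percentiles 40 and 60 the share was 35.5%. A missing Halo-Sox2 peak was thus common near that control rank. These shares do not take account of the Halo-Sox2a peak.

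The second region missing from the Halo-Sox2 list (chr7:144867307-144867827) lay 2322 bp beyond the gene. It scored 52 in the Halo-Sox2a list (rank 62377) and 20 in the control list (rank 68997 of 72638), close to the lowest score of 13. The promoter region (chr7:144861112-144861904) was in all 3 lists, scoring 143 with Halo-Sox2 (rank 45581), 48 with Halo-Sox2a (rank 63234) and 95 in the control (rank 31742). Halo-Sox2a thus ranked lowest at the promoter, at percentile 21.2 against 48.6 and 54.4. Halo-Sox2a instead ranked highest at a region 3636 bp before the gene (chr7:144857042-144858459), where scores were 150 for Halo-Sox2 (rank 43776, percentile 50.6), 266 for Halo-Sox2a (rank 15440, percentile 81.5) and 102 for the control (rank 30500, percentile 57.7).

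Farther from Fgf4, all 3 lists held 7 of 16 regions, both Halo-Sox lists 3, Halo-Sox2 alone 2, the control alone 2, Halo-Sox2a alone 1, and Halo-Sox2a with the control 1. The higher region of Halo-Sox2 alone (chr7:144823588-144824050, nearest to Fgf3) stood high in that list, with a score of 477, rank 12108 and percentile 86.3. Of all Halo-Sox2 regions above percentile 80, 33.5% lacked a control peak and 19.1% a Halo-Sox2a peak. The other named regions were lower. The region of both Halo-Sox lists at chr7:144898631-144898926 scored 211 (rank 33960) and 86 (rank 46726), and that of Halo-Sox2a with the control at chr7:144907971-144908478 scored 168 (rank 26763) and 49 (rank 52835). The region of Halo-Sox2a alone (chr7:144908803-144909100) scored 74 (rank 50726), and the higher control-only region (chr7:144902004-144902513) scored 63 (rank 44491).

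Between Fgf4 and Fgf3, a region held by all 3 lists (chr7:144851149-144851871) showed the greatest difference between Halo-Sox2a and the control in any of the 5 windows. It lay 9876 bp before Fgf4. Its scores were 207 for Halo-Sox2 (rank 34366), 386 for Halo-Sox2a (rank 8148) and 43 for the control (rank 54419). To compare ranks over lists of equal length, percentiles were also taken among the 41984 regions that all 3 lists held. On that scale the region stood at 49.6, 80.9 and 9.17, and the Halo-Sox2a difference of 71.7 points exceeded those of 99.6% of the common regions. Being picked as the greatest of 39 differences, it owes a high place in part to that choice.

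At Utf1, the region over the gene was strong in all lists and the region beyond it was missing from the Halo-Sox2 list, as at Fgf4. The region over the gene (chr7:139943504-139944733) scored 406 with rank 15871 for Halo-Sox2, 403 with rank 7449 for Halo-Sox2a and 182 with rank 15353 for the control. The percentiles were 82.1, 91.1 and 78.7. A region 707 bp beyond the gene (chr7:139945604-139946034), with its midpoint 1963 bp after the start site, scored 144 in the control list (rank 20991, percentile 70.9) and 43 in the Halo-Sox2a list (rank 67193, percentile 19.8), with no Halo-Sox2 peak. The known Sox2-Oct4 enhancer of Utf1 lies in the sequence that follows the coding part, although no enhancer coordinates were used here to match it.

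The missing peak at Utf1 fell at a higher control rank than that at Fgf4. Of the regions between control percentiles 60 and 80, 19.4% lacked a Halo-Sox2 peak and 5.52% a Halo-Sox2a peak. Of the 12 regions of the 5 genes in that range, the one beyond Utf1 was the only one that lacked a Halo-Sox2 peak, and none lacked a Halo-Sox2a peak. Keeping only peaks above percentile 25 of each list left it in the control list alone.

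The other 15 regions at Utf1 comprised 8 in all 3 lists, 3 of Halo-Sox2a with the control, 2 of both Halo-Sox lists, 1 of Halo-Sox2 alone and 1 of Halo-Sox2a alone. The unshared ones were mostly weak. The highest of Halo-Sox2a with the control (chr7:139994505-139994985, nearest to Adam8) scored 142 (rank 31176) and 76 (rank 37943), and the region of both Halo-Sox lists with the higher mean percentile (chr7:139908172-139908582) scored 69 (rank 68829) and 38 (rank 71319). The region of Halo-Sox2 alone (chr7:139966966-139967265) scored 46 (rank 77239) and that of Halo-Sox2a alone (chr7:139992519-139992876) scored 53 (rank 62150). The control list held no region at Utf1 that both Halo-Sox lists lacked.

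**Figure D2:**
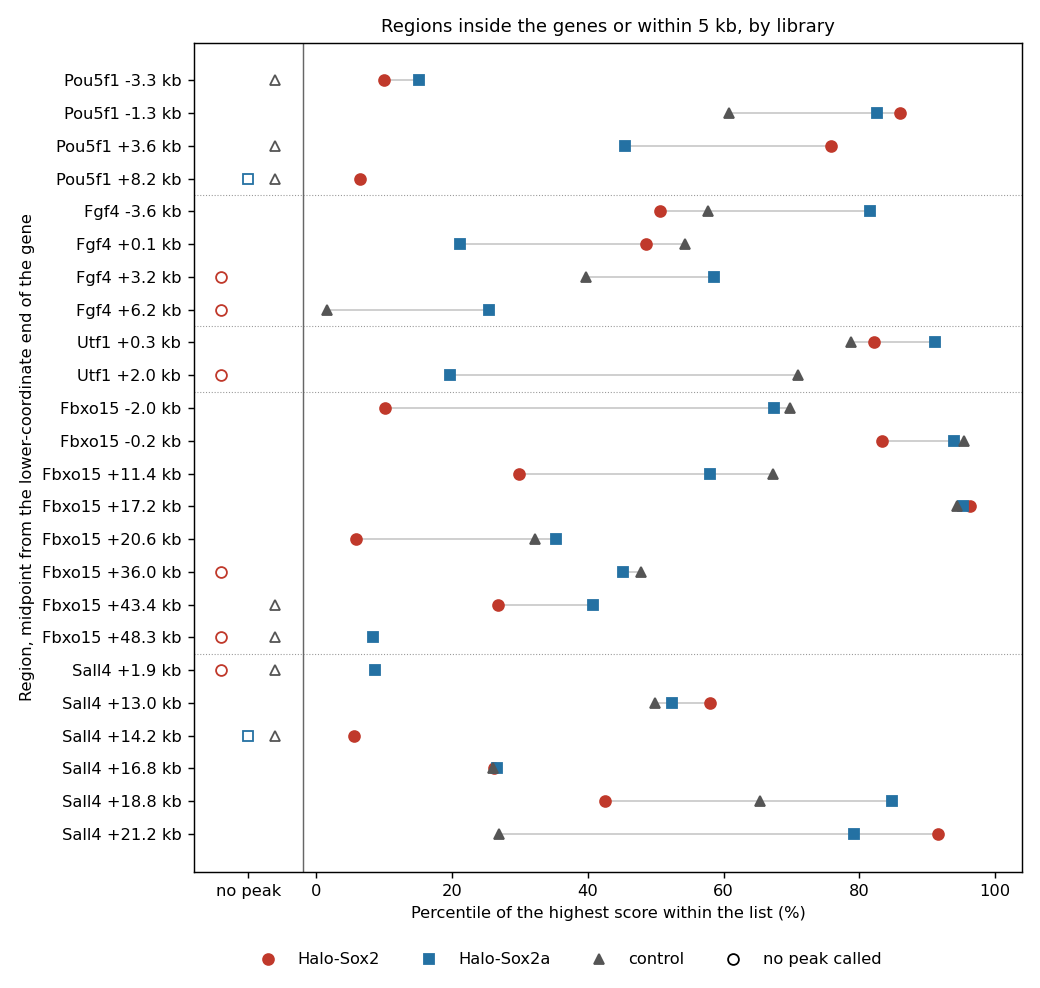
The 24 regions inside the 5 genes or within 5 kb of them. The x axis is the percentile of the region's highest score within each list, in percent, with open symbols at the left where a list has no peak, and the y axis gives the gene and the region's distance in kb from its lower-coordinate end. Open Halo-Sox2 circles mark the Fgf4 region at percentiles 39.8 (control) and 58.6 (Halo-Sox2a) and the Utf1 region at 70.9 and 19.8, while at Pou5f1 the open symbols are those of the control and, once, Halo-Sox2a.

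At Fbxo15, 5 of the 8 regions near the gene were in all 3 lists, and the Halo-Sox2 list gave the lowest percentile at 4 of these, with an exception inside the gene. The region over the lower-coordinate end (chr18:84933640-84935063) scored 424 with rank 14796 for Halo-Sox2, 471 with rank 5135 for Halo-Sox2a and 380 with rank 3355 for the control. The exception (chr18:84950938-84952484), 17159 bp into the gene, scored 808 with rank 3319 for Halo-Sox2, 518 with rank 4028 for Halo-Sox2a and 353 with rank 4108 for the control. It was among the highest in every list, at percentiles 96.3, 95.2 and 94.3.

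A region 2012 bp before the lower end (chr18:84932353-84932727) differed most. Its score was 45 with rank 79725 for Halo-Sox2, 164 with rank 27270 for Halo-Sox2a and 138 with rank 21861 for the control. The percentile was 10.1 in the Halo-Sox2 list against 67.4 and 69.7 in the others, and with lists of equal length the Halo-Sox2 peak dropped out. Inside the gene, the region at chr18:84945529-84946295 scored 85, 125 and 129 in the same order of lists (ranks 62179, 35159 and 23647), and the region at chr18:84954817-84955408 scored 35, 67 and 54 (ranks 83492, 54144 and 48961). At both, the Halo-Sox2 percentile was again the lowest, at 29.9 and 5.90.

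The remaining near regions of Fbxo15 were unshared. One inside the gene (chr18:84970366-84970805) scored 91 for Halo-Sox2a (rank 45777) and 77 for the control (rank 37771) and had no Halo-Sox2 peak. Another (chr18:84977764-84978085) scored 80 in both Halo-Sox lists (ranks 62923 and 49568) and had no control peak. The last, beyond the gene (chr18:84982698-84982912), was of Halo-Sox2a alone with a score of 27 (rank 76866). These 3 regions, all at or under percentile 47.8, went in 3 different directions.

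Of the 10 farther regions at Fbxo15, 3 were of both Halo-Sox lists, 2 of all 3 lists, 2 of Halo-Sox2a with the control, and 1 each of Halo-Sox2, Halo-Sox2a and the control alone. One of the first kind (chr18:84903306-84903827, nearest to Cyb5a) was the highest-ranked unshared region of the 5 genes in the Halo-Sox2 list. It scored 562 there (rank 8847, percentile 90.0) and 105 with Halo-Sox2a (rank 40389). The others were weaker. The region of Halo-Sox2 alone (chr18:84918694-84919230) scored 149 (rank 43885), and the higher region of Halo-Sox2a with the control (chr18:84912787-84913129) scored 49 (rank 63035) and 76 (rank 37943). The region of the control alone (chr18:84891236-84891574) scored 43 (rank 54419) and that of Halo-Sox2a alone (chr18:84986403-84986976) scored 22 (rank 80581).

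At Sall4, a region beside the higher-coordinate end stood higher in the Halo-Sox2 list than in the control list by more percentile points than any other shared region at the 5 genes. This region (chr2:168769224-168769890), 2356 bp beyond that end, scored 604 with rank 7508 for Halo-Sox2, 244 with rank 17348 for Halo-Sox2a and 49 with rank 52835 for the control. The percentiles within the lists were 91.5, 79.3 and 26.9. Among the common regions they were 87.5, 61.0 and 10.8, and the Halo-Sox2 difference of 76.8 points exceeded those of 98.8% of these regions. It was the greatest of 39 differences at the 5 genes, so a high place follows in part from that choice. The control peak was also the narrowest, at 242 bp against 667 bp for Halo-Sox2 and 558 bp for Halo-Sox2a.

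The region over the higher-coordinate end of Sall4 (chr2:168766844-168767365) had another order. It scored 120 with rank 50882 for Halo-Sox2, 302 with rank 12700 for Halo-Sox2a and 124 with rank 25047 for the control, at percentiles 42.6, 84.8 and 65.3. The Halo-Sox2 list therefore ranked this region lowest and the neighbouring one highest. Inside the gene, the region at chr2:168761116-168761482 scored 189, 108 and 85 (ranks 37215, 39870 and 36170) and the region at chr2:168764593-168765601 scored 77, 56 and 47 (ranks 65383, 58857 and 53438), in the same order of lists. The latter stood between percentiles 26.1 and 26.6 within the whole lists, and at 16.7, 7.25 and 10.2 among the regions common to all lists.

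The last near regions of Sall4 were each called once and near the threshold. One (chr2:168762255-168762746) had a Halo-Sox2 score of 33 (rank 83809), and the other (chr2:168750089-168750368) a Halo-Sox2a score of 29 (rank 76487). The 10 farther regions comprised 3 of all lists, 3 of Halo-Sox2a with the control, 2 of Halo-Sox2a alone, 1 of both Halo-Sox lists and 1 of Halo-Sox2 with the control. The last (chr2:168734051-168734428, nearest to Atp9a) scored 63 (rank 69816) and 26 (rank 67925) and was the only region of its kind at the 5 genes. The region of both Halo-Sox lists (chr2:168701994-168702670) scored 63 (rank 69816) and 121 (rank 35762), the highest of Halo-Sox2a alone (chr2:168707847-168708049) scored 40 (rank 67853), and the highest of Halo-Sox2a with the control (chr2:168729913-168730438) scored 56 (rank 58857) and 42 (rank 54665).

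A farther region of all 3 lists also stood higher in both Halo-Sox lists. At chr2:168790858-168791810, 24.1 kb beyond Sall4, scores were 594 (rank 7816) for Halo-Sox2, 557 (rank 3303) for Halo-Sox2a and 140 (rank 21582) for the control. Its percentiles among the common regions were 87.0, 92.1 and 52.7.

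The order of the genes by their highest region within 5 kb was compared between lists as a description. The highest was taken over unequal numbers of regions, 8 at Fbxo15, 6 at Sall4, 4 at Pou5f1, 4 at Fgf4 and 2 at Utf1. It was not always the same region, as the control list had another one at Fbxo15 and the Halo-Sox2 list another one at Sall4. Fbxo15 came first and Fgf4 last in all 3 lists, at percentiles 96.3 and 50.6 for Halo-Sox2, 95.2 and 81.5 for Halo-Sox2a, and 95.4 and 57.7 for the control. In between, the control and Halo-Sox2a lists had Utf1, Sall4 and Pou5f1 in that order, and the Halo-Sox2 list had Sall4 (91.5), Pou5f1 (86.0) and Utf1 (82.1). The Halo-Sox2a values of Sall4, Pou5f1 and Fgf4, 84.8, 82.6 and 81.5, lay close together, and with 1 library in each group it could not be said which neighbours differ beyond the spread between samples.

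Counted over the 5 genes, all 3 lists held 39 of 88 regions (44.3%, 95% Wilson interval 34.4 to 54.7%), against 32.1% of all union regions. With only peaks above percentile 50 of each list, the share was 34.0%, against 31.9% of all. Regions of both Halo-Sox lists numbered 13 (14.8%, against 8.95% of all), as did those of Halo-Sox2a with the control (14.8%, against 10.3%). Halo-Sox2a alone held 11 (12.5%, against 12.2%), Halo-Sox2 alone 6 (6.82%, 3.16 to 14.1%, against 24.3%), the control alone 5 (5.68%, against 10.2%), and Halo-Sox2 with the control 1 (1.14%, against 1.90%). The regions of Halo-Sox2 alone, the second most numerous class in the genome, were thus few at these genes. The shares of all regions were not matched for distance to genes, and the share of Halo-Sox2 alone was not recomputed under other settings. Within 20 kb of the genes, the share held by all 3 lists was 53.5%. Within 5 kb, all 3 lists held 13 of 24 regions, and no region was of the control alone. The intervals cover counting error only, and neighbouring regions are not independent.

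**Figure D3:**
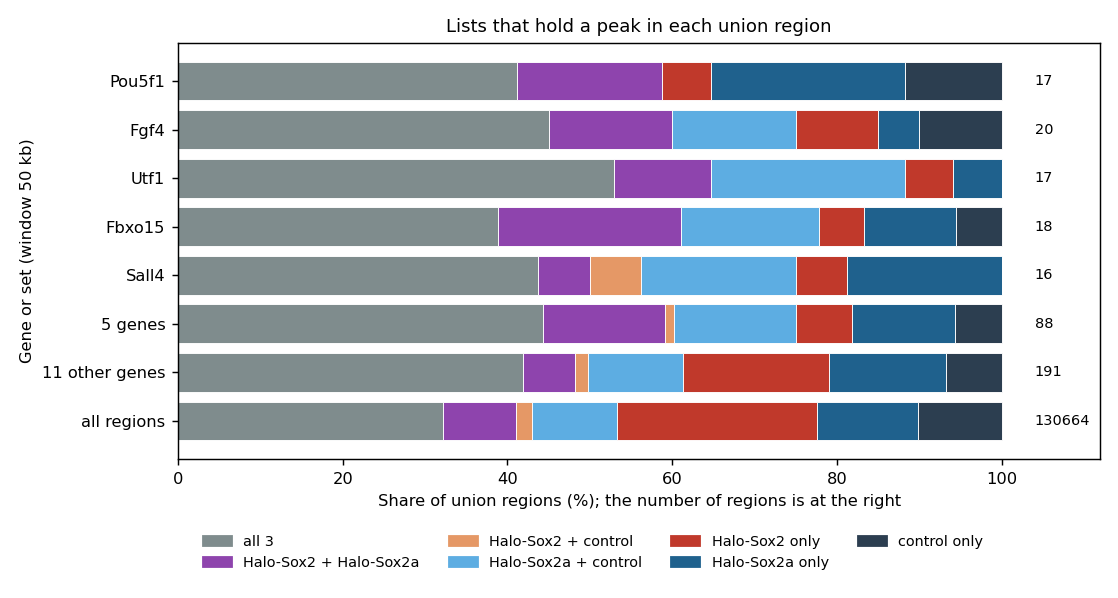
Share of union regions, in percent of the regions within 50 kb of each gene, by the lists that hold a peak. Rows are the 5 genes, their sum, 11 other genes of the circuit and all regions, with the number of regions at the right. Regions of Halo-Sox2 alone take 6.82% at the 5 genes and 24.3% of all regions.

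In the comparison of Halo-Sox2 with the control, 19 of the 77 regions held by either list had a Halo-Sox2 peak and no control peak (24.7%, 16.4 to 35.4%), below the background of 37.9%. The opposite, a control peak and no Halo-Sox2 peak, held for 18 regions (23.4%, 15.3 to 34.0%), at the background of 23.3%. In the comparison of Halo-Sox2a with the control, regions with a Halo-Sox2a peak alone of the pair numbered 24 of 82 (29.3%, 20.5 to 39.9%, background 28.0%) and those with a control peak alone 6 (7.32%, 3.40 to 15.1%, background 15.9%). The last share was 12.3% with only peaks above percentile 25 of each list (background 14.5%). Both comparisons share the control library. Within 20 kb of the genes the shares without a control peak were lower, 15.4% (Halo-Sox2) and 17.5% (Halo-Sox2a).

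Compared directly, 7 of 83 regions had a Halo-Sox2 peak and no Halo-Sox2a peak (8.43%, 4.15 to 16.4%, background 29.2%), and 24 had a Halo-Sox2a peak and no Halo-Sox2 peak (28.9%, 20.3 to 39.4%, background 25.1%). Every one of the 5 genes had more regions of the second kind. The counts were 1 against 4 at Pou5f1, 2 against 4 at Fgf4, 1 against 5 at Utf1, 1 against 5 at Fbxo15 and 2 against 6 at Sall4.

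The 39 regions held by all lists were compared by percentile among the common regions. Their median percentiles were 44.0 (Halo-Sox2), 46.4 (Halo-Sox2a) and 38.5 (control). The median difference from the control was 4.08 points for Halo-Sox2 (quartiles -14.0 and 16.7), against -1.52 over all common regions, and -0.18 for Halo-Sox2a (quartiles -11.6 and 17.2), against -0.46. These medians were small beside the spread between regions.

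Single regions differed far more than the medians. Halo-Sox2 stood over 10 points above the control at 15 of the 39 regions and over 10 points below it at 14, against backgrounds of 28.0% and 32.2% of common regions. For Halo-Sox2a the counts were 14 above and 10 below, against 25.9% and 28.1%. Halo-Sox2 stood over 10 points above Halo-Sox2a at 12 and below it at 11, against 26.8% and 27.6%. The windows of the genes differed in direction for Halo-Sox2. Median differences were 16.9 points at Sall4 (7 regions), 12.6 at Pou5f1 (7), 11.6 at Fgf4 (9), -10.2 at Utf1 (9) and -18.4 at Fbxo15 (7). These medians cover whole windows, and the named gene was the nearest protein-coding gene at 35 of all 88 regions. The shared regions nearest to Utf1 differed by 9.77, -12.3 and 27.5 points, mostly against its median. Those nearest to Fgf4 differed by only 0.95 and 2.55 points, and those nearest to Pou5f1 by 12.6 and 39.1. Most of those nearest to Sall4 stood above the control and most of those nearest to Fbxo15 below it. In the Fbxo15 window, 6 of 7 regions stood over 10 points below the control, also with percentiles within whole lists. At Fgf4, all 9 stood above the control on the scale of common regions, but 3 of the 9, the promoter region among them, stood below it with percentiles within whole lists. The Halo-Sox2 medians of the 5 genes kept their signs on that second scale. For Halo-Sox2a the medians were 8.18 at Sall4, -4.18 at Pou5f1, 9.95 at Fgf4, -14.4 at Utf1 and -3.77 at Fbxo15. Within whole lists those of Pou5f1 and Fbxo15 turned to 1.18 and 0.89. On the scale of common regions, the shared regions nearest to Utf1 stood 17.4, 17.1 and 14.0 points above the control, against its median. Those nearest to Pou5f1 stood 17.3 and 25.9 points above it, also against the median. Those nearest to Fgf4 differed by 27.6 and -28.7 points. Those nearest to Sall4 went both ways, and most of those nearest to Fbxo15 stood below the control.

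**Figure D4:**
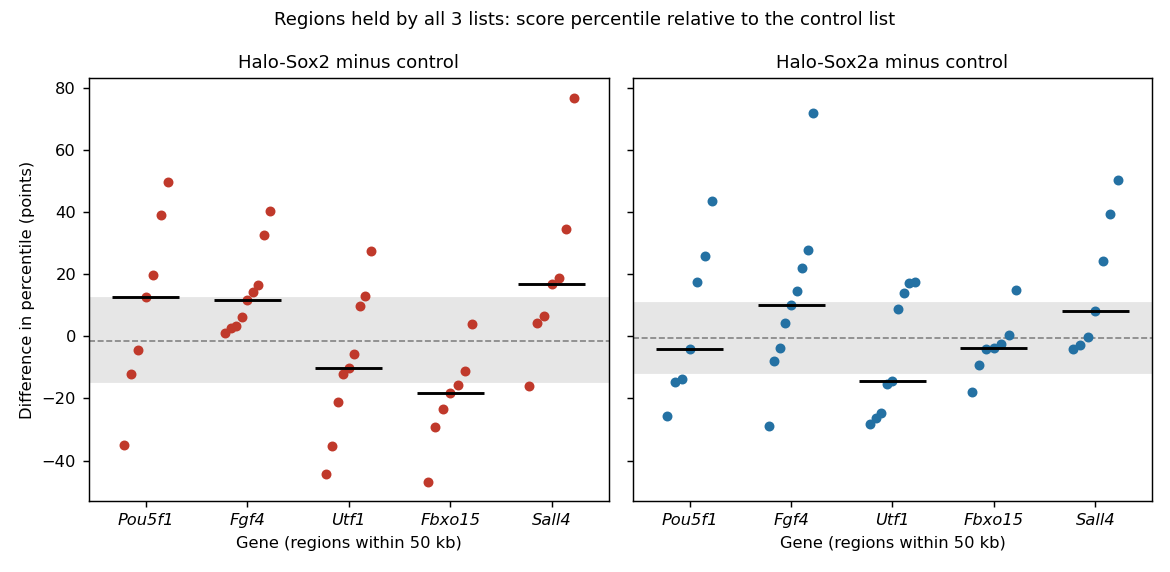
Difference in score percentile, in points among the common regions, between each Halo-Sox list and the control list. Each point is a region held by all 3 lists within 50 kb of the gene on the x axis, bars are medians per gene, the dashed line is the median and the grey band the quartile range of all 41984 common regions. Fbxo15 has a median of -18.4 for Halo-Sox2 and -3.77 for Halo-Sox2a, and Sall4 has 16.9 and 8.18.

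Other genes of the Sox2-Oct4 circuit were counted the same way, as Sox2, Nanog, Lefty1, Zscan10, Zfp42, Esrrb, Klf4, Tdgf1, Dppa3, Dppa4 and Spp1. All 3 lists held 80 of their 191 regions (against 32.1% of all), Halo-Sox2 alone 34 (against 24.3%) and Halo-Sox2a alone 27 (against 12.2%). Halo-Sox2a with the control held 22 (against 10.3%), both Halo-Sox lists 12 (against 8.95%), the control alone 13 (against 10.2%) and Halo-Sox2 with the control 3 (against 1.90%). As at the 5 genes, the share of all 3 lists was above that of all regions and the share of Halo-Sox2 alone was below it. A Halo-Sox2 peak without a control peak was found at 28.0% of the regions of either list and the opposite at 21.3%, against 24.8% and 10.2% in the comparison of Halo-Sox2a with the control. The backgrounds over all regions were 37.9%, 23.3%, 28.0% and 15.9% in the same order. The median percentile differences over the 80 shared regions were -4.66 points (Halo-Sox2) and 2.62 points (Halo-Sox2a). Of these genes, Sox2 had the greatest share of regions with a Halo-Sox2 peak and no control peak, 8 of 15 (53.3%, against 37.9% of all). It is the highest of 11 shares, each of few regions.

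Genes with the most similar highest peak inside the gene or within 1 kb were found by the smallest of the largest percentile differences over the 3 lists, leaving out the genes named above. For Fgf4 these were Mpp2 (0.285 points) and Vax1 (0.808), for Utf1 Slc1a5 (0.317) and Cyp4f37 (0.697), for Fbxo15 Ctnna3 (0.350), and for Sall4 Mymx (2.24) and Lrrc14 (2.75). Pou5f1, with no control peak in that interval, was compared over both Halo-Sox lists with the 299 genes that also lacked one, and the nearest were Jaml (3.54) and Pttg1ip2 (3.79). Within 5 points of Fbxo15, whose ranks were high, lay 2909 of 15566 genes. The counts were 306 for Utf1, 45 for Fgf4 and 28 for Sall4, and 3 of the 299 for Pou5f1.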

How the data were processed

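Accessible chromatin was measured by ATAC-seq in 3 libraries of mouse embryonic stem cells, 1 for each of the groups. The authors deposited 1 peak list per library, each peak with a score of no stated scale, which was used only within its list. The submitters' processing notes name STAR, SAMtools, MACS2 3.0.0a7, deepTools 3.3.0, MACS3 and the build mm10 without their roles, and peak thresholds and any shift of read ends are not given in the sources used here. Positions are 1-based, and mm10 is the UCSC name of GRCm38, whose RefSeq gene table (GRCm38.p6, all 5 genes matched) and promoter windows (3 matched) were used.

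Peaks overlapping by at least 1 bp were merged, and a region belonged to a gene when its midpoint lay inside or within 50 kb. A region took the highest score of each list. Python 3.11.15 and pandas 2.3.3 were used, and the code was checked on simulated lists. Regions named were all those within 5 kb and, farther away, the highest-ranked of each unshared class by mean percentile. Single regions named beyond this rule (near Fgf3 and 24.1 kb from Sall4) and the ranges of percentile used as background were chosen after their values were seen. The genes and gene lists were chosen with earlier results of these data known. Some genes that the rules select are not reported here. Alternatives changed the overlap, list length, score threshold, window, gene assignment and percentile. No test was run, because each group had 1 library.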

Additional observations from a re-analysis of the deposited data

How the results depend on the processing

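Of 58 recomputed values, 48 stayed close to the reported value (for shares, inside its 95% Wilson interval), 6 moved outside it and 4 changed sign. The cause of each change was not tested. The share of regions held by all 3 lists was 34.0% with only peaks above percentile 50 of each list, against 44.3%, and the share over all regions was 31.9% against 32.1%, so the excess was smaller among the stronger peaks. The share with a Halo-Sox2 peak and no control peak, 24.7%, was 15.4% with a window of 20 kb and 15.6% with only the regions nearest to their gene. For Halo-Sox2a, 29.3% became 17.5% and 18.2% under the same settings, and the share with a control peak and no Halo-Sox2a peak, 7.32%, became 3.03% under the latter, which is 1 of 33 regions. That last share was nearer to that over all regions with peaks above percentile 25 (12.3%, against 14.5%) or 50 (11.6%, against 15.6%), and 12.0% with lists of equal length (20.9% over all). The median percentile difference between Halo-Sox2 and the control, 4.08 points, was -0.45 with percentiles within whole lists. The median over all common regions moved with it, from -1.52 to -5.11, so the 5 genes stayed above it on both scales. For Halo-Sox2a, the median difference of -0.18 was 0.29 with a window of 100 kb and 0.24 for the regions nearest to their gene, against -0.46 over all common regions. It was 3.00 with percentiles within whole lists, against 1.81 over all common regions. The number of genes with a peak at a gene end was 4 in each list and 5 with a distance of 2.5 kb. No paired analysis was possible because each group had 1 library, and no replicate could be left out. The depth of the libraries is unknown, so a missing peak is not evidence of closed chromatin.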
